A study of Rattus norvegicus with 4 samples.

Results

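Membrane traffic genes were examined in rat liver: the genes of vesicle coats, cargo receptors, Arf and Rab GTPases, clathrin adaptors, Vps proteins, sorting nexins and SNAREs. Members were chosen by gene symbol alone, as every gene whose symbol begins with the stem of 1 of these families, and the rule uses no measured value, although it was drawn up with earlier results of these data known. They numbered 169 genes, read by 212 probe sets, of 10412 named genes and 15923 probe sets on the array. A member with several probe sets was represented by the brightest, the probe set with the highest mean over the rats.

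The samples were livers of 4 male Sprague-Dawley rats, 10 to 12 weeks old, which were given no treatment. Each liver was measured on its own Affymetrix expression array, in which short probes grouped into probe sets bind labelled copies of the transcripts. All 4 rats belong to 1 group, so no conditions were compared, and a difference between rats cannot be told apart from a difference between arrays.

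Proteins made in the endoplasmic reticulum (ER) leave it in COPII vesicles, and COPI vesicles return escaped residents from the Golgi apparatus. Clathrin and its adaptor complexes load vesicles at the plasma membrane, the trans-Golgi network and endosomes, Rab GTPases mark each compartment, and SNAREs fuse the vesicle with its target. Hepatocytes, the main cells of the liver, use this route to secrete albumin and other plasma proteins without storing them in granules.

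The deposited values are log2 signals, and the medians of the 4 arrays were all 8.11. How strongly a probe set shines depends on its own probes, so levels of different genes do not rank their transcripts. The background call and the choice of the brightest probe set still compare signals between probe sets, so both describe signal rather than amount. A gene was called above background where its mean exceeded 8.87, the 95th percentile of 76 probe sets of 55 genes known from brain, muscle, testis and eye. That level rests on few probe sets, since 4 of the 5 probe sets of Myh1, a skeletal muscle myosin, lay above it. Without Myh1 the level was 8.25, and counts of gene groups are given at both. The liver label was borne out by 9 of 9 measured hepatocyte markers above background, among them Alb (albumin) at 15.06. Markers of other cells in the piece were also read, with 6 of 6 Kupffer cell, 2 of 5 endothelial, 1 of 7 stellate, 0 of 4 bile duct and 0 of 6 lymphocyte markers above 8.87. Above 8.25 the counts were 3 of 5 endothelial and 3 of 7 stellate markers, with the other 4 lists as before. Of 4 measured blood cell markers, 1 was above 8.87 and 2 above 8.25. In whole tissue, fewer cells of a type and less RNA per cell cannot be told apart.

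Of the 169 members, 58 (34.3%) were above background, beside 24.6% of all named genes. At the level without Myh1, 117 members (69.2%) were above, beside 50.2% of all named genes. At the 98th percentile of the background list, a signal of 10.65, the order was turned: 5 members (2.96%) were above, beside 4.6% of all named genes. The share of members thus exceeded that of all genes at both lower levels and fell short of it at the highest, a description that carries no test. By family, the share above background was 80% for COPII, 75% for COPI, 66.7% for Arf GTPases and 54.5% for cargo receptors. Clathrin adaptors gave 38.1%, Rab GTPases 36.4%, and VAMPs with Sec22 25%, beside the same 24.6%. Vps genes gave 14.8%, proteins named after a Rab 14.3%, sorting nexins 12.5% and syntaxins 9.09%, all under it. At the level without Myh1 all families exceeded 50.2% except proteins named after a Rab, at 42.9%, and Rab GTPases gave 56.8%. On the single arrays, 56 members were above 8.87 on all 4, 104 on none, and 9 on some. Just above the level lay Lman1 at 8.90, Rab38 at 8.92, Rab10 at 8.93, Rab9a at 8.96 and Rab1b at 9.0. Just below it lay Rab5c at 8.86, Stx7 at 8.84, and Sec31a, Ap3m1 and Lman2l at 8.83 each.

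Many deposited values did not differ between arrays at all. The 4 values of 72 members lay within 0.001 of each other, as did those of 42.4% of all named genes. Among the 58 members above background 12 were identical in this sense, beside 26.6% of all genes above background. For such genes the data give a level and no measure of the spread between rats.

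**Figure D1:**
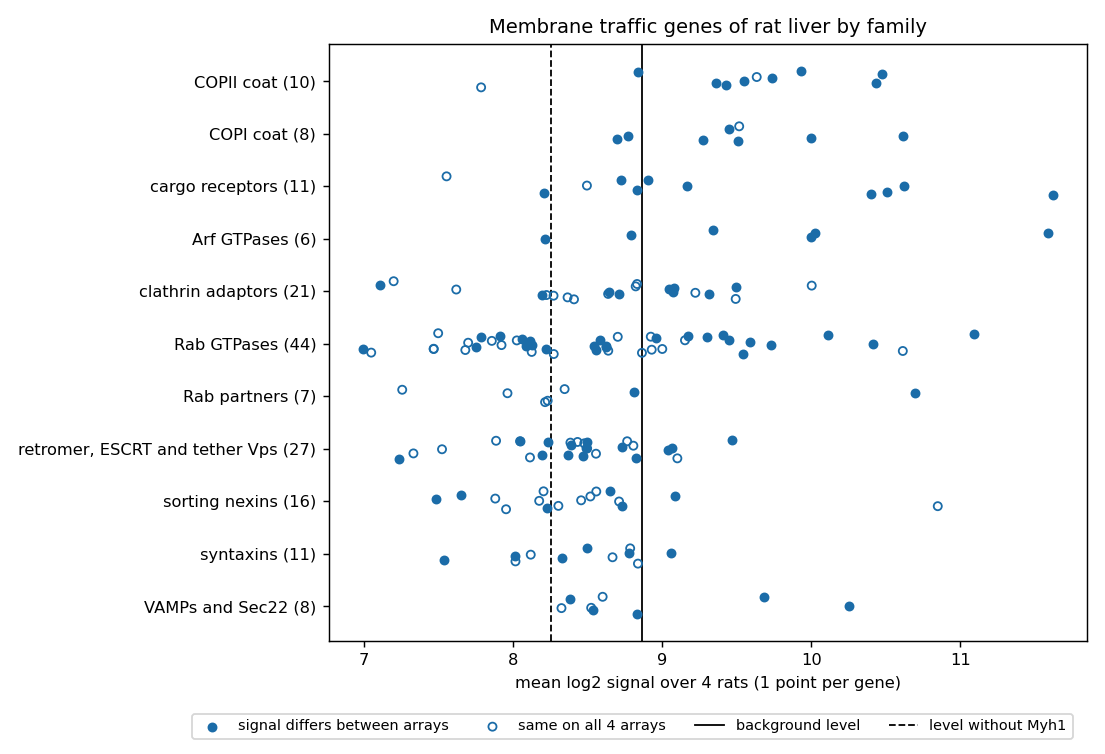
Mean log2 signal over the 4 rats of each of the 169 members (1 point per gene), by family, with the number of measured genes in parentheses and the height within a family random. The solid line is the background level of 8.87 and the dashed line the level without Myh1, 8.25; open points are genes whose 4 values were the same, and 8 of 10 COPII points lie right of the solid line against 2 of 16 sorting nexins.

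The COPII coat, which buds vesicles from the ER, had 8 of its 10 measured genes above background and 9 above the level without Myh1. Both forms of Sar1, the GTPase that starts coat assembly, were among them: Sar1a read 10.42, 10.48, 10.51 and 10.47 in rats 1 to 4, and Sar1b read 10.51, 10.37, 10.46 and 10.40. The scaffold genes Sec16a and Sec16b, which mark ER exit sites, averaged 9.93 ± 0.067 and 9.36 ± 0.114 (mean ± SD, n = 4 rats, as throughout). Of the inner coat, Sec23b averaged 9.43 ± 0.383, and of the Sec24 forms, which bind cargo, Sec24c averaged 9.55 ± 0.075 and Sec24d 9.73 ± 0.034. The third Sec24 form measured, Sec24b, lay at 7.79 in every rat, under both levels. Of the outer coat, Sec13 lay at 9.63 in every rat. Its partner Sec31a read 8.78, 8.89, 8.79 and 8.87, above the level in rats 2 and 4 and below it in the other two.

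The COPI coat, which works from the Golgi apparatus back to the ER, had 6 of the 8 genes taken in by symbol above background and 8 of 8 above the level without Myh1. Its zeta subunit gene Copz1 read 10.65, 10.55, 10.58 and 10.69, and the alpha subunit gene Copa read 9.98, 10.02, 10.01 and 9.99. The beta subunit genes Copb1 and Copb2 averaged 9.51 and 9.52, and the gamma and epsilon subunit genes Copg1 and Cope 9.45 and 9.27. The second forms of the gamma and zeta subunits were the remaining genes of those taken in by symbol, which need not be the whole coat. Copg2 averaged 8.69 ± 0.047, and Copz2 read 8.72, 8.72, 8.74 and 8.91. Copz2 was thus above 8.87 in rat 4 alone.

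Arf GTPases recruit the COPI coat and several adaptors, and 4 of the 6 were above background, or 5 at the level without Myh1. Arf1 read 11.55, 11.57, 11.64 and 11.60, a range of under 0.1 between the rats. Arf4, Arf5 and Arf3 averaged 10.02, 10.00 and 9.34. Arf6, which acts at the plasma membrane, read 8.79, 8.81, 8.87 and 8.70, above the level in rat 3 alone. Arf2 averaged 8.21 and lay under both levels.

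Promoter sequences are shown because a short motif recurred in those of COPI and Arf genes. RefSeq windows on the rat assembly GRCr8, running from 250 bases before to 50 after the gene start, were at hand for 148 of the 169 members. Both strands were searched for 14 motifs, and the 2 motifs shown were picked after the counts of all 14 were known, so their shares describe these genes and carry no test. TGACGTGG, the core of the unfolded protein response element read by ATF6 and XBP1, was in the windows of 6 members (4.05%), beside 0.846% of the 8631 named genes with a window. All 6 were above background: Arf1, Arf4, Copa, Copb1, Copb2 and Stx5. Of the 148 members with a window, 50 were above background. Over all named genes, 27.4% of its 73 holders were above background, beside 25.2% of all with a window. At the level without Myh1, 60.3% of the holders were above, beside 50.2% of all named genes, with or without a window. A match is a run of letters and not a shown binding site. The matches are printed 5′ to 3′ on the strand of the gene, with the motif in capitals. In Copb1, Copb2 and the first run of Stx5 it reads in the reverse direction, as CCACGTCA. The matches in Copa and in the second run of Stx5 lie past the gene start, and that in Copb1 runs across it. The others lie before the start.
Arf1 (chr10:44514006-44514035, minus strand): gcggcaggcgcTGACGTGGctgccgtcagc
Arf4 (chr16:1903416-1903435, plus strand): cggccgccgtgTGACGTGGc
Copa (chr13:87078887-87078916, plus strand): cctggggtagcTGACGTGGagcctttggga
Copb1 (chr1:177872828-177872857, minus strand): cccgcctccttCCACGTCAgccaaggactc
Copb2 (chr8:108040666-108040686, plus strand): tcccggaagttCCACGTCAgt
Stx5 (chr1:215066502-215066531, plus strand): tggcgcagtagCCACGTCAcggggttaggg
Stx5 (chr1:215066532-215066561, plus strand): gtacgtgtaggTGACGTGGcggctccagtt

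Of the other 12 motifs, those of the ER stress and cAMP responses came first. The full ER stress response elements ERSE and ERSE-II were in 0 member windows each, beside 0.197% and 0.0695% of named genes. TGACGTCA, the cAMP response element, was in 7 members (4.73%) beside 2.94%, and its shorter form TGACG in 60 members (40.5%) beside 30.9%. The run GACGTG was in 25 members (16.9%) beside 9.29%, and the run CCACG in 79 (53.4%) beside 46.7%. These motifs overlap, since every match of the first motif shown also holds all 3 of the shorter ones, CCACG on the other strand. The cAMP response element likewise holds its shorter form, and ERSE and ERSE-II hold CCACG and the CCAAT box on some strand. Among motifs of general promoters, GGGCGG was in 109 members (73.6%) beside 60.6%, CCAAT in 56 (37.8%) beside 38.8%, CCGGAAG in 37 (25%) beside 15.9%, and the NRF1 motif in 3 (2.03%) beside 1.73%. The nuclear receptor motif TGACCT was in 16 members (10.8%) beside 13.5%, and CACGTG, which lies inside the second motif shown, in 16 (10.8%) beside 9.29%.

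Cargo receptors carry proteins into these vesicles, and 6 of 11 were above background, or 9 at the level without Myh1. Of the p24 family, Tmed2 read 11.66, 11.63, 11.60 and 11.59, while Tmed10 averaged 10.50, Tmed9 10.40 and Tmed7 9.17. Tmed4, Tmed3, Tmed1 and Tmed8 lay between 7.55 and 8.72, below the level. Of the lectins that bind sugar chains of glycoproteins, Lman2 read 10.51, 10.58, 10.72 and 10.69. Lman1, the receptor of clotting factors V and VIII, read 8.80, 8.92, 9.0 and 8.90, and was below the level in rat 1 alone. Its partner in this task, Mcfd2, is not a member by symbol and averaged 11.27. Lman2l, a relative of Lman2, read 8.91, 8.62, 8.94 and 8.85, with rats 1 and 3 above the level.

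Clathrin adaptor genes gave 8 of 21 above background and 16 above the level without Myh1. Of AP-2, the adaptor of endocytosis, Ap2m1 lay at 10.00 in every rat, Ap2a2 averaged 9.50 ± 0.048 and Ap2b1 9.31 ± 0.012. Its small subunit gene Ap2s1, at 8.82, was below the level. AP-1, which works between the trans-Golgi network and endosomes, had Ap1s1, Ap1b1 and Ap1m1 above, at 9.22, 9.07 and 9.05. Its gamma subunit genes Ap1g1 and Ap1g2, at 8.22 and 8.27, were below. Of AP-3, which feeds lysosome-related organelles, Ap3d1 and Ap3b1 were above at 9.49 and 9.08. The genes Ap3b2, Ap3m2 and Ap1m2, known from neurons and epithelia, lay at 7.11, 7.62 and 8.19, under both levels.

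Rab GTPases were the family with the most measured genes, and 16 of 44 were above background, or 25 at the level without Myh1. Of those placed at the ER and Golgi apparatus 5 of 8 were above background and 7 above the level without Myh1. Rab1a, needed for transport from the ER to the Golgi apparatus, read 11.14, 11.12, 11.05 and 11.04. Rab2a averaged 9.59, Rab18, found on the ER and lipid droplets, 9.45, and Rab6a, a Golgi Rab, 9.17. Rab1b lay at 9.0 in every rat. Rab6b, known from brain, lay at 7.47.

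Rabs of recycling and of delivery to the plasma membrane gave 5 of 9 above background and 6 above the level without Myh1. Rab11b read 10.12, 10.14, 10.08 and 10.12, and Rab11a read 9.82, 9.65, 9.74 and 9.71. Rab14 averaged 10.41 ± 0.041, Rab8a 9.30 ± 0.030 and Rab10 lay at 8.93 in every rat. Late endosome and lysosome-related Rabs gave 3 of 5, or 5 at the level without Myh1. Rab7a, which directs late endosomes to lysosomes, lay at 10.61 in every rat. Rab9a, which returns receptors from late endosomes to the Golgi apparatus, read 9.08, 8.86, 9.02 and 8.86, with rats 1 and 3 above the level.

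Early endosome Rabs gave 2 of 7 above background and 3 above the level without Myh1, and the 3 forms of Rab5, the Rab of endosome fusion, had different calls. Rab5b read 9.39, 9.40, 9.45 and 9.40, above the level in every rat. Rab5c lay at 8.86 in every rat, within 0.01 of the level, and Rab5a averaged 8.11 ± 0.047, under both levels. These are readings of different probes and give no order of amounts. Rabs of regulated secretion, which serve granule release in neurons and glands, gave 0 of 8 above 8.87 and 1 above 8.25. Their means ran from 7.00 for Rab3c to 8.27 for Rab3b, and Rab27a and Rab27b lay at 7.47 and 7.5. Of 7 genes for proteins named after a Rab, 1 was above background and 3 above the level without Myh1. The first, Rab5if, named as a Rab5 interacting factor, read 10.76, 10.55, 10.77 and 10.69.

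Vps genes, most of them first found by the missorting of vacuole proteins in yeast, gave 4 of 27 above background and 18 above the level without Myh1. They were grouped by symbol alone, and a role in traffic was not checked for each gene, such as Vps72 at 8.81. Retromer, which recycles receptors from endosomes, had Vps35 at 9.10 in every rat and Vps29 at 9.04 ± 0.048, while Vps26a averaged 8.49, so 2 of 3 were above background and 3 above the level without Myh1. Vps41, of the HOPS complex that tethers late endosomes to lysosomes, read 9.51, 9.45, 9.41 and 9.50, and the other 5 measured genes of its group lay between 8.05 and 8.48, 3 of them above the level without Myh1. Of the ESCRT genes, which sort membrane proteins for destruction, 1 of 7 was above background and 5 above the level without Myh1. Vps4a, the ATPase that takes the complex apart, averaged 9.06 ± 0.071. The 3 measured of the 4 listed genes of GARP, a tether at the trans-Golgi network, lay between 8.36 and 8.56, between the levels. Sorting nexins, which bind endosomal lipids and shape recycling tubules, gave 2 of 16 (12.5%, beside 24.6% of all named genes) above background. At the level without Myh1 they gave 9 of 16 (56.2%, beside 50.2%). Snx3 lay at 10.85 in every rat and Snx5 averaged 9.09 ± 0.060.

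The second motif shown was TCACGTGA, the core of the CLEAR element of lysosomal genes read by TFEB. It was in the windows of 6 members (4.05%), beside 1.43% of named genes. Of the 6, which were Snx2, Stx6, Vps11, Vps16, Vps26a and Vps33a, 0 were above background, and Vps11, Vps16 and Vps26a were above the level without Myh1. Over all named genes, 25.2% of its 123 holders were above background, the share of all genes with a window. At the level without Myh1, 59.3% of the holders were above, beside 50.2% of all named genes, with or without a window. Over the 14 motifs searched this share ran from 50.4% for holders of TGACCT to 83.3% for the 6 holders of ERSE-II. Only the Vps matches are printed: Vps11, Vps16 and Vps33a encode parts of 1 tethering core, and Vps26a, a part of retromer, is shown with them. The matches in Snx2 and Stx6 are not printed. Of the matches in Vps11 and Vps33a, which hold 2 each, the one farther before the gene start is given.
Vps11 (chr8:53595385-53595414, minus strand): ttacatggctcTCACGTGAttcgccttgtg
Vps16 (chr3:138075627-138075656, plus strand): tggcggcctcaTCACGTGAccccggcgggc
Vps26a (chr20:30976890-30976910, minus strand): gtggcctacggTCACGTGAcg
Vps33a (chr12:38685466-38685495, plus strand): agcgactcaggTCACGTGAacggtccgtca

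SNARE genes above the level were 1 of 11 syntaxins and 2 of 8 VAMPs and Sec22 forms. At the level without Myh1 the counts were 7 of 11 and 8 of 8, so most of them lay between the levels. Vamp8, a SNARE of endosomes and of secretion in exocrine glands, read 10.23, 10.23, 10.28 and 10.28. Vamp7, a SNARE of late endosomes and lysosomes, read 9.73, 9.53, 9.87 and 9.58. Stx5, the syntaxin of traffic between ER and Golgi apparatus, read 8.99, 9.12, 9.11 and 9.02. The SNAREs of neuronal exocytosis Stx1a, Vamp1 and Vamp2 averaged 8.02, 8.32 and 8.54, with 0 of 3 above background and 2 above the level without Myh1. Vamp3, a SNARE of recycling endosomes, read 8.85, 8.80, 8.87 and 8.81, and Stx18, a SNARE of the ER, read 8.77, 8.78, 8.88 and 8.67. Each of these was above the level in rat 3 alone, as was the Rab11 partner Rab11fip5, at 8.80, 8.78, 8.91 and 8.74.

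Genes of the same pathway that carry other names were read from lists made for this purpose. Of 90 measured, 35 (38.9%) were above background, beside 24.6% of all named genes, and 70 (77.8%) were above the level without Myh1, beside 50.2%. In what follows the count without Myh1 stands second. Regulators of COPII and ER exit gave 14 and 19 of 24, among them the cargo receptor Surf4 at 10.77 and the retrieval receptor Kdelr1 at 10.39. Clathrin, dynamin and other adaptors gave 6 and 9 of 12, with the clathrin chains Clta and Cltc at 10.58 and 10.31. Arf regulators gave 4 and 7 of 10, and other ESCRT genes 4 and 8 of 10. Other SNAREs and fusion factors gave 4 and 14 of 16, the Rab cycle 2 and 5 of 7, and the exocyst and COG tethers 1 and 8 of 11. In the ER itself, 15 of 15 chaperone genes and 17 of 17 genes of protein entry were above background.

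Spread between rats could be read for the 46 members that were above background and whose values were not identical. Their median SD was 0.0467 log2 units, and it was 0.0700 over the 1880 such genes of the whole array. An SD of at least 0.1 was seen in 7 of the 46 (15.2%), beside 33.7% of those genes. Sec23b had the largest SD: it read 8.92 in rat 1, 9.86 in rat 2, 9.49 in rat 3 and 9.44 in rat 4. Rat 1 was the lowest and rat 2 the highest, with rats 3 and 4 close together, and 3.88% of those 1880 genes had an SD as large. Vamp7 followed with 0.154, where rats 2 and 4 read lower than rats 1 and 3. Sec16b, Rab9a, Rab6a, Rab5if and Arf5 had SDs of 0.102 to 0.114, and Lman2, Tmed7, Rab18, Lman1 and Sec24c of 0.075 to 0.098.

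**Figure D2:**
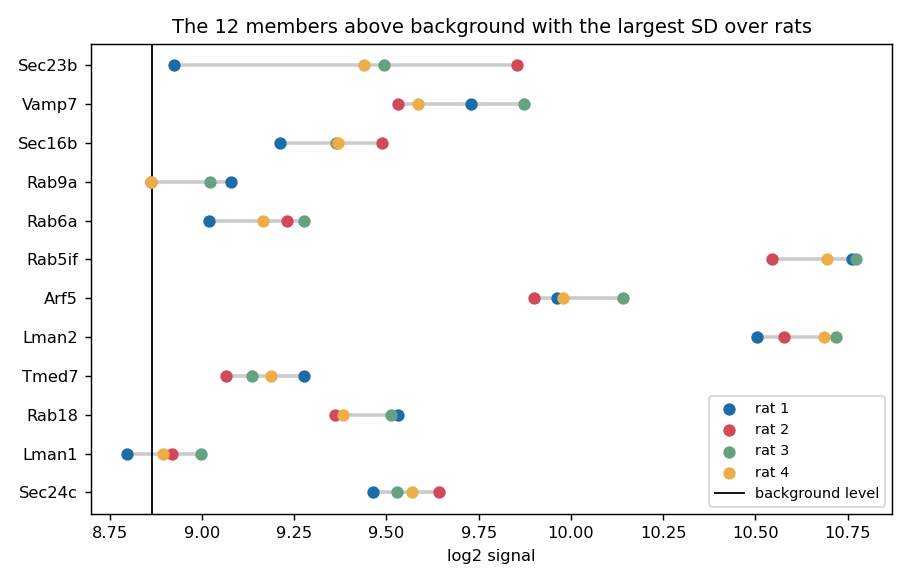
Log2 signal in each rat (coloured points) for the 12 members above background with the largest SD, with grey bars from the lowest to the highest rat and the background level of 8.87 as a line. Sec23b spans 8.92 to 9.86, and Lman1 and Rab9a have points on both sides of the line.

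**Figure D3:**
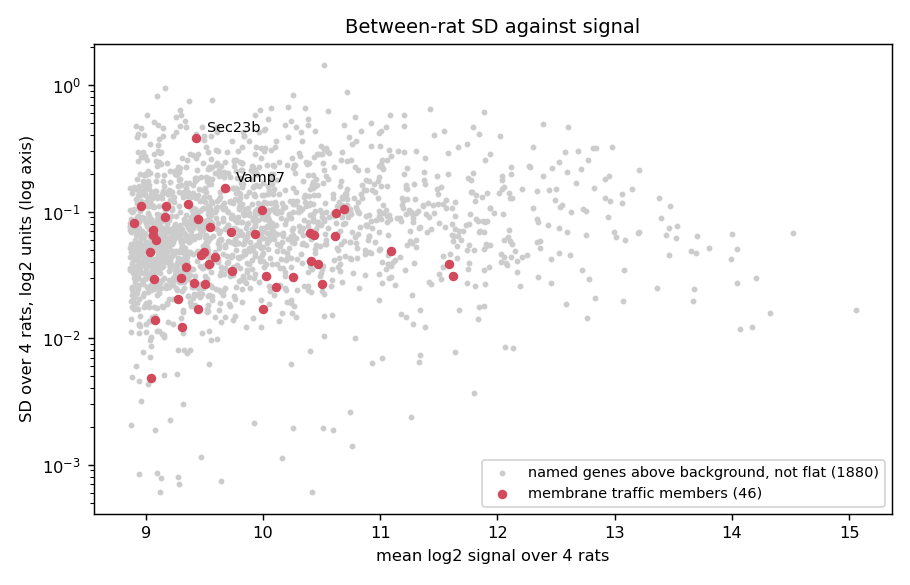
SD over the 4 rats (log axis, log2 units) against mean log2 signal for the 1880 named genes above background with non-identical values (grey) and the 46 members among them (red). Sec23b at 0.383 and Vamp7 at 0.154 are the highest red points.

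Whether any gene varied more between rats than genes of like signal was tested with an F test. The test set the variance of each gene against a prior variance fitted by limma, with Benjamini-Hochberg adjustment over all 1880 genes. It called 0 of 1880 genes and 0 of 46 members. At an unadjusted threshold of 0.05 there were 53 genes (2.82%) and 1 member, Sec23b, whose adjusted p by the F test with the limma prior was 0.918. Without rat 1 or without rat 2 Sec23b missed that unadjusted threshold too, with adjusted p by the same F test of 0.953 and 0.935. The SDs of single genes differed so widely that the prior carried only 1.45 degrees of freedom, so a count of 0 does not show that the rats were alike.

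The median deviation of the 46 members from their own means was -0.01, 0.01, 0.01 and -0.01 in rats 1 to 4. Rat 1 was the lowest in 18 of the 46 (31.8% of all such genes), rat 2 in 15 (33% of all), rat 3 in 5 (15.5%) and rat 4 in 8 (19.7%). Rat 1 was the highest in 11 (22.9% of all such genes), rat 2 in 14 (18.6%), rat 3 in 15 (36.8%) and rat 4 in 6 (21.8%).

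Of the 7 COPII genes that could be read, 5 were lowest in rat 1 (31.8% of all such genes) and 5 were highest in rat 2 (18.6% of all), with no test. Their median deviations were -0.09, 0.06, 0.02 and 0.01 in rats 1 to 4. Sar1b had the opposite order, highest in rat 1 and lowest in rat 2, Sar1a was highest in rat 3, and Sec24d was lowest in rat 4. Of the 5 lowest in rat 1, Sar1a was so by its brightest probe set and not by its second above background. The 5 COPI genes had median deviations between -0.01 and 0.02. The 11 Rab genes had 5 highest in rat 1, with median deviations of 0.02, -0.01, -0.01 and -0.02. ER chaperone genes, which are no members, were lowest in rat 1 in 11 of 13, with a median deviation there of -0.12. Genes of protein entry into the ER were lowest there in 8 of 13, with a median deviation of -0.07. Of 9 hepatocyte markers 3 were lowest in rat 1 and 2 highest in rat 2. Of 5 markers of Kupffer cells, the macrophages of the liver, with non-identical values, 3 were lowest in rat 1 and 4 highest in rat 2. Their median deviations were -0.15, 0.12, 0.07 and -0.02. The endothelial marker Fcgr2b was lowest in rat 1 and highest in rat 3, and the stellate marker Col3a1 was highest in rat 2 and lowest in rat 3. The blood marker Hbb (haemoglobin beta) deviated by 0.46, -0.19, 0.19 and -0.45, in an order unlike that of the COPII medians. It was the only 1 of 4 measured blood cell markers above 8.87. Below that level, Alas2 was also highest in rat 1, Ppbp was lowest there, and Pf4 had identical values. The part of any of these cell types in the COPII values was not tested.

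**Figure D4:**
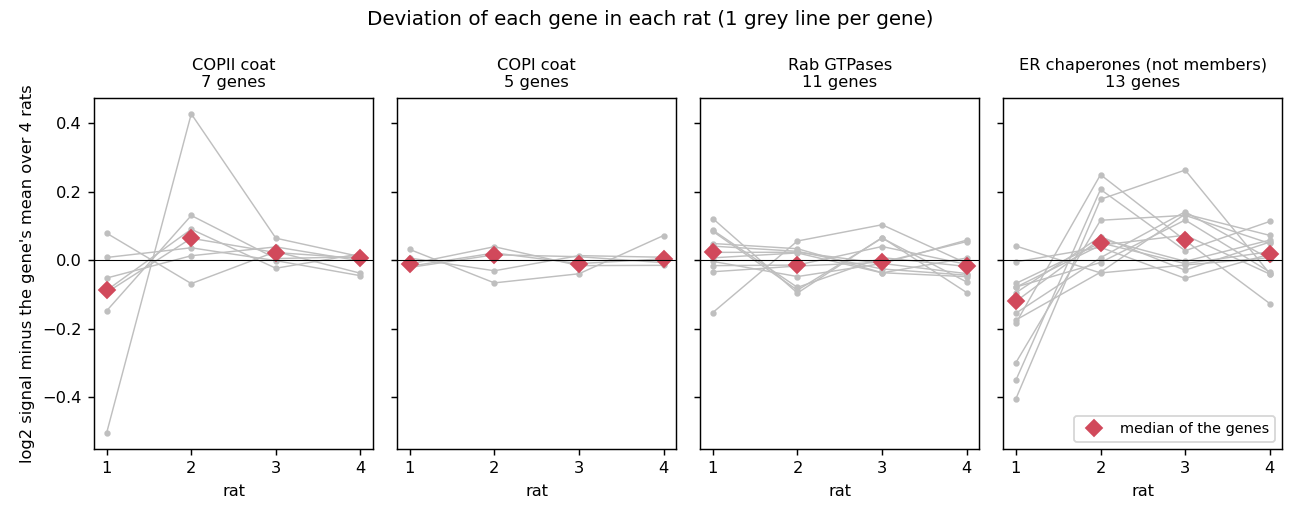
Deviation of each gene from its own mean over the 4 rats, in log2 units, for genes above background with non-identical values (grey lines, 1 per gene; lines join the rats only to show which points belong together) with the median as a red diamond. The COPII median is -0.09 in rat 1 and 0.06 in rat 2, the COPI and Rab medians stay within 0.03 of 0, and the ER chaperone median is -0.12 in rat 1.

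Of the 169 members 36 had several probe sets, and 9 had at least 2 above background. Rab14 had 3 above: the brightest read 10.46, 10.44, 10.39 and 10.37, the next 10.24, 10.19, 10.31 and 10.35, and the third 8.78, 9.18, 8.99 and 9.0. The first was highest in rat 1 and lowest in rat 4, the next was highest in rat 4, and the third was lowest in rat 1, so they order the rats differently. The second probe set of Sar1a read 9.30, 9.26, 9.39 and 9.26, which shares with the first only that rat 3 was highest. Those of Tmed2, Arf1 and Tmed7 had identical values in all rats, at 10.41, 10.46 and 8.93, and both probe sets of Rab7a did. Rab11b was highest in rat 2 and lowest in rat 3 by its brightest probe set, and the reverse by its second. Copg1 was highest in rat 2 by its brightest and in rat 3 by its second. Rab5b was highest in rat 3 by its brightest and lowest there by its second. The order of the rats thus depended on the probe set read in every member with non-identical values in several probe sets above background.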

How the data were processed

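The labels describe total liver RNA on Affymetrix RAE230-2 arrays, while the scanner settings name RAE230A. The authors deposited log2 signals per probe set. The tools named in the submitters' processing notes are GCRMA, RMA, affy 1.12.2 and R 2.4.1, and whether GCRMA or RMA gave the values is not given in the sources used here. All arrays had 1 lot and 1 scan day, so no batch could be fitted.

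Probe sets with 1 gene symbol (12789) were named from the platform annotation, and 168 of the 169 members matched the GRCr8 gene table. The members, gene lists and tests were chosen with earlier results of these data known. Named genes were, by rule, the 2 with the highest means per family, the 12 members above background with the largest SDs, those on both sides of the level, those with 2 or more probe sets above it, and sets of paralogues. Genes outside it, such as Snx2, Sec13, Rab2a, Rab27a and Vps11, were named after their values were seen.

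The F test (prior from limma 3.58.1, R 4.3.3, adjusted p of 0.05) was tested on simulated data. Its first version, with prior degrees of freedom set per gene, failed there and was replaced after its result on these values was known. The version used recovered changed genes only where the simulated SDs were much more alike than the real ones. Python 3.11.15, numpy 2.4.6, pandas 2.3.3 and matplotlib 3.10.9 did the rest. Alternatives covered the background level, the probe set per gene, scaling, the prior, the measure of spread and each rat left out.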

Additional observations from a re-analysis of the deposited data

Results flagged for a closer look

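For 4 members 1 rat lay far from the other 3, by Dixon's gap. Arf4 read 10.07 in rat 3 and 10.00 to 10.01 in the others. Copb1 read 9.55 in rat 2 and 9.49 to 9.50 in the others. Copz2 read 8.91 in rat 4 and 8.72 to 8.74 in the others, and Rab5b read 9.45 in rat 3 and 9.39 to 9.40 in the others. In all 4 the distant rat was the highest, and 45 sets of 4 values were examined, of which chance alone would mark about 5%. The second probe set of Rab5b above background read 9.15, 9.14, 9.11 and 9.15 in rats 1 to 4. Rat 3 was the lowest there, so the high reading of rat 3 depended on the probe set. A probe set assigned to Vps25, Cntd1 and Wnk4 together averaged 9.44, above background, and was left out of the members since its signal cannot be given to 1 of these genes.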

How the results depend on the processing

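The count of members above background, 58, was 117 with the 90th percentile or without Myh1, 5 with the 98th percentile, and 112 of 165 when probe sets that can read several transcripts (names ending in s, x or a) were dropped, which also lowers the level. It was 54 with the median over all probe sets of a gene, 58 with quantile normalization or updated symbols, and 57 to 60 when each rat was left out. The median SD, 0.0467, was 0.0436 with the 98th percentile, 0.0373 with identical values kept, and 0.0422 to 0.0468 when each rat was left out. The range in place of the SD, another measure, gave 0.102. The median deviation in rat 1 was 0.0439 with the 98th percentile, over 4 genes. No member was called variable under any setting run, as the F test with the limma prior gave 0 each time. The first version of that F test, with prior degrees of freedom set per gene, gave 50 genes at an unadjusted p under 0.05. The version used was chosen after that result was seen. Of the named genes' means, 16 of 53 moved by more than 1 SD with the median of probe sets and 9 of 53 with quantile normalization. For genes with identical values the SD is close to 0, so almost any shift counts as a move. With quantile normalization Ap2m1, for instance, went only from 10.0025 to 10.0046, and Copb2 from 9.5161 to 9.51411. No paired analysis was possible because all rats belong to 1 group. Without pixel data or detection calls, signal over background is limited to the level used here.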
